A study of Mus musculus with 88 samples.

Results

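The 9 hedgehog pathway genes described here are Shh, Ihh, Ptch1, Hhip, Smo, Gli1, Gli2, Gli3 and Foxf1, chosen by name as ligands, receptors, transcription factors and a target gene of the pathway. They were 9 of 53697 genes in the mesoderm table, of 54393 in the endoderm table, of 26007 in the bulk embryoid body (EB) table and of 15830 in the single-cell table, and each table lists all 9. The series compared mouse embryonic stem cells (ESCs) that lack a subunit of Polycomb repressive complex 2 (PRC2) with wild-type (WT) cells, over 88 samples. In the directed series, ESCs labelled strain E14 that were WT, Mtf2 null or Jarid2 null were grown as a monolayer and sampled undifferentiated and after 5, 24 and 48 h on the way to mesoderm (Activin A, BMP4, CHIR99021 and FGF2, then BMP4 with A-83-01) or to endoderm (Activin A, CHIR99021 and FGF2, then Activin A with DM3189). Each genotype and time had 2 libraries, 24 in each series, which the study calls technical duplicates. In the single-cell experiment, EBs labelled E14 that were WT, Mtf2 null, Jarid2 null or Eed null were sorted into plates at days 0, 4, 7 and 10, with 1 library for each genotype and day and EBs pooled from several wells. In the bulk EB experiment, lines labelled null for Mtf2, for Jarid2 and for Eed were set beside the WT lines that the study names as matched to their backgrounds, Pcl1-3 wt, JM8 and J1, at days 0, 2, 4 and 7. The column headers of day 0 read mono and those of the later days eb. All cells were maintained in medium with serum and leukemia inhibitory factor.

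The hedgehog pathway is read through a double inhibition. Without ligand, the receptor Ptch1 holds the membrane protein Smo inactive at the primary cilium and Gli3 is trimmed into a repressor; when a ligand such as Shh or Ihh binds Ptch1, Smo is released and the Gli proteins act as activators. Ptch1, Hhip and Gli1 are themselves transcribed in response to the pathway, so their RNA is widely used as its readout, and Foxf1 is a responsive gene of the mesoderm that surrounds the gut. Ihh is the ligand made by visceral endoderm, and Shh that of the notochord and floor plate. PRC2 places a repressive methyl mark on histone H3, is found at promoters rich in unmethylated CpG, and is brought there in one form by Mtf2 and in another by Jarid2; Eed is a core subunit of both.

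In the directed series, RNA of Ihh and Ptch1 was higher in Mtf2 null cells and that of Smo was lower. In the bulk EB line labelled Mtf2 null, Ptch1 and Smo had the opposite signs. As PRC2 is found at promoters rich in CpG, the promoter sequences of these 3 members are shown. Each runs from 250 bases before to 50 bases after the RefSeq transcription start on GRCm38.p6 and is written 5′ to 3′ on the strand of the gene, with every CpG in capitals. Ihh lies at chr1:74951623-74951922 on the minus strand, Ptch1 at chr13:63565686-63565985 on the minus strand and Smo at chr6:29735247-29735546 on the plus strand. The Ptch1 window lies inside the annotated gene, which begins on this strand at chr13:63573598, so its start is an internal one.
Ihh: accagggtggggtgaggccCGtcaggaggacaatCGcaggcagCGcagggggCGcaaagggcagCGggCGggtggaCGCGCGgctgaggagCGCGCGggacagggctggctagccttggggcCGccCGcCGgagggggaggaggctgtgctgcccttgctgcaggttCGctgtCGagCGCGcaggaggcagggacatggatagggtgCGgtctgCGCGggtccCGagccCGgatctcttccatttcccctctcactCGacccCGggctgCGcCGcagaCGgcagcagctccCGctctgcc
Ptch1: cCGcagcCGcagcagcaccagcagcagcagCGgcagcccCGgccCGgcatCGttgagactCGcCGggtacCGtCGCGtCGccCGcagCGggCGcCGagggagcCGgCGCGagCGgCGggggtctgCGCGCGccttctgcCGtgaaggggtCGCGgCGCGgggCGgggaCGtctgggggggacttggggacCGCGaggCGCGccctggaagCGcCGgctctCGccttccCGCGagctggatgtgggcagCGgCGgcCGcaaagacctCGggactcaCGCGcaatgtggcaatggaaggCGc
Smo: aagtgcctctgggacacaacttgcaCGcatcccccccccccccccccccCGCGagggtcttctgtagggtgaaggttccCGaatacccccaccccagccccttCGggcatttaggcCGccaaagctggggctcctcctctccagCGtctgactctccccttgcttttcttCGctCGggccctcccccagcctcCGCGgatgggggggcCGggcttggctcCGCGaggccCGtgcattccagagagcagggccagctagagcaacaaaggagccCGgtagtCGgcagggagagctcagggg
The Ihh window held 30 CpG, the Ptch1 window 47 and the Smo window 17, against a median of 7 over 32851 promoters of this length (quartiles 3 and 20). The windows of Gli2, Gli3 and Hhip held 28, 39 and 30. Thus 5 of the 6 members with a promoter in the RefSeq table were above the upper quartile, and Smo was between the median and that quartile. Of these, Gli2 and Hhip had RNA below WT in Mtf2 null cells at 5 h of both directed series. Any relation of CpG number to the direction of change was not tested. The GLI binding sequence GACCACCCA was searched on both strands without mismatch and was in none of the 6 windows and in 0.253% of all promoters; Shh, Gli1 and Foxf1 are named only. On GRCm38 the whole genes lie at chr5:28456815-28467256 (Shh), chr1:74945315-74951672 (Ihh), chr13:63508328-63573598 (Ptch1), chr8:79965851-80058006 (Hhip) and chr6:29735503-29761365 (Smo). The Gli genes lie at chr10:127329882-127341974 (Gli1), chr1:118834132-119053619 (Gli2) and chr13:15463235-15730026 (Gli3), and Foxf1 at chr8:121084386-121088144.

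The genotypes were checked on the targeted genes. In the directed series Mtf2 RNA was 6.87-fold to 14.5-fold lower in Mtf2 null libraries, whereas Jarid2 RNA was kept in the Jarid2 null libraries (log2 fold change -0.68 at 24 h of the mesoderm series, its lowest value), so gene-level counts do not check that label. In single cells Eed fell from 115.2 to 478 CPM of UMIs in WT libraries to between 1.329 and 11.49 in Eed null ones, and Mtf2 and Jarid2 were also lowest in their own null libraries on each day. In the bulk EBs, in contrast, the library labelled Mtf2 null at day 0 held Mtf2 at 316 CPM (counts scaled to library size) against 415 in Pcl1-3 wt, and on days 2, 4 and 7 at 237, 231 and 164 against 442, 324 and 383 CPM, lower on 4 of 4 days but well above 0. At day 0 Eed was 111 CPM in the line labelled Eed null and 106 in J1, and on days 2, 4 and 7 it was 206, 107 and 58.3 against 245, 79 and 52.4. Jarid2 at day 0 was 593 CPM in the line labelled Jarid2 null and 503 in JM8, and on days 2, 4 and 7 it was 661, 251 and 221 against 641, 277 and 329. As in the directed series, Jarid2 RNA does not check that label. The bulk EB lines are therefore referred to as labelled throughout. Directed libraries held 9111880 to 16898264 counts, bulk EB columns 3005707 to 22944105 reads, and single-cell libraries 202 to 347 cells, whose median depth lay between 4997 and 10603 UMIs. In the directed and single-cell experiments the study gives the mutants as separately derived lines while WT was E14, so that line background and genotype cannot be told apart.

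In WT ESCs Ptch1, Smo and the Gli genes were expressed, while the ligands Shh and Ihh were at or near 0. Levels were put on a per-length scale (RPKM, which is CPM divided by the merged length of all annotated exons of the gene in kilobases). This length is 14185 bases for Ptch1 and 5621 for Smo, so the order of the genes depends on it. In undifferentiated cells of the mesoderm series (mean ± SD of 2 libraries), Gli2 stood at 11.0 ± 2.45, Gli1 at 7.86 ± 1.21, Smo at 5.99 ± 0.926 and Ptch1 at 4.50 ± 0.877. Gli3 followed at 1.07 ± 0.305, Hhip at 0.161 ± 0.0949 and Ihh at 0.0441 ± 0.0167. Neighbours in this order from Gli2 to Ptch1 lay within the sum of their SDs, while Gli3 lay clearly under Ptch1 and above Hhip. The endoderm series gave the same order in its undifferentiated libraries, from Gli2 at 10.8 ± 2.30 to Ihh at 0.0309 ± 0.000237. Shh was at 0 to 2 counts in every library of both series and Foxf1 at 0 to 6 in the mesoderm and 0 to 9 in the endoderm series, and neither passed the filter on low counts. Ihh passed it, but no WT library had more than 7 Ihh counts, so that it entered the tests through Mtf2 null libraries.

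Over 48 h the Gli genes of WT cells moved apart. Gli3, the main repressor of the pathway, rose 3.78-fold in the mesoderm series, from 12.3 and 8.18 CPM undifferentiated to 35.4 and 41.8 at 48 h (log2 fold change 1.92, SE 0.16, adjusted p = 2.25e-08, edgeR). It rose 3.82-fold in the endoderm series, from 11.0 and 9.46 to 39.1 and 39.2. Gli2, the main activator, fell 3.04-fold in the mesoderm series, from 87.8 and 64 to 25.5 and 24.4 CPM, and 2.87-fold in the endoderm series, from 85.4 and 63.1 to 30.6 and 21.1. Gli1, an activator that is itself a target, fell 3.31-fold in the mesoderm series, from 43.6 and 35 to 12.9 and 10.7 CPM. Its 1.98-fold lower level in the endoderm series (adjusted p = 3.86e-06) did not pass the fold limit. Hhip, a decoy receptor that binds the ligands, rose 8.57-fold in the endoderm series, from 0.947 and 1.12 CPM (10 and 12 counts) to 7.02 and 10.9 CPM. The limits for a call were 0.001 for the adjusted p and 1 for the size of the log2 fold change; 3 of the 7 tested members were called in each series, beside 8.64% of all tested genes in the mesoderm and 8.15% in the endoderm series. Whether a lower level in these bulk samples is fewer cells with the RNA or less RNA per cell cannot be told apart.

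**Figure D1:**
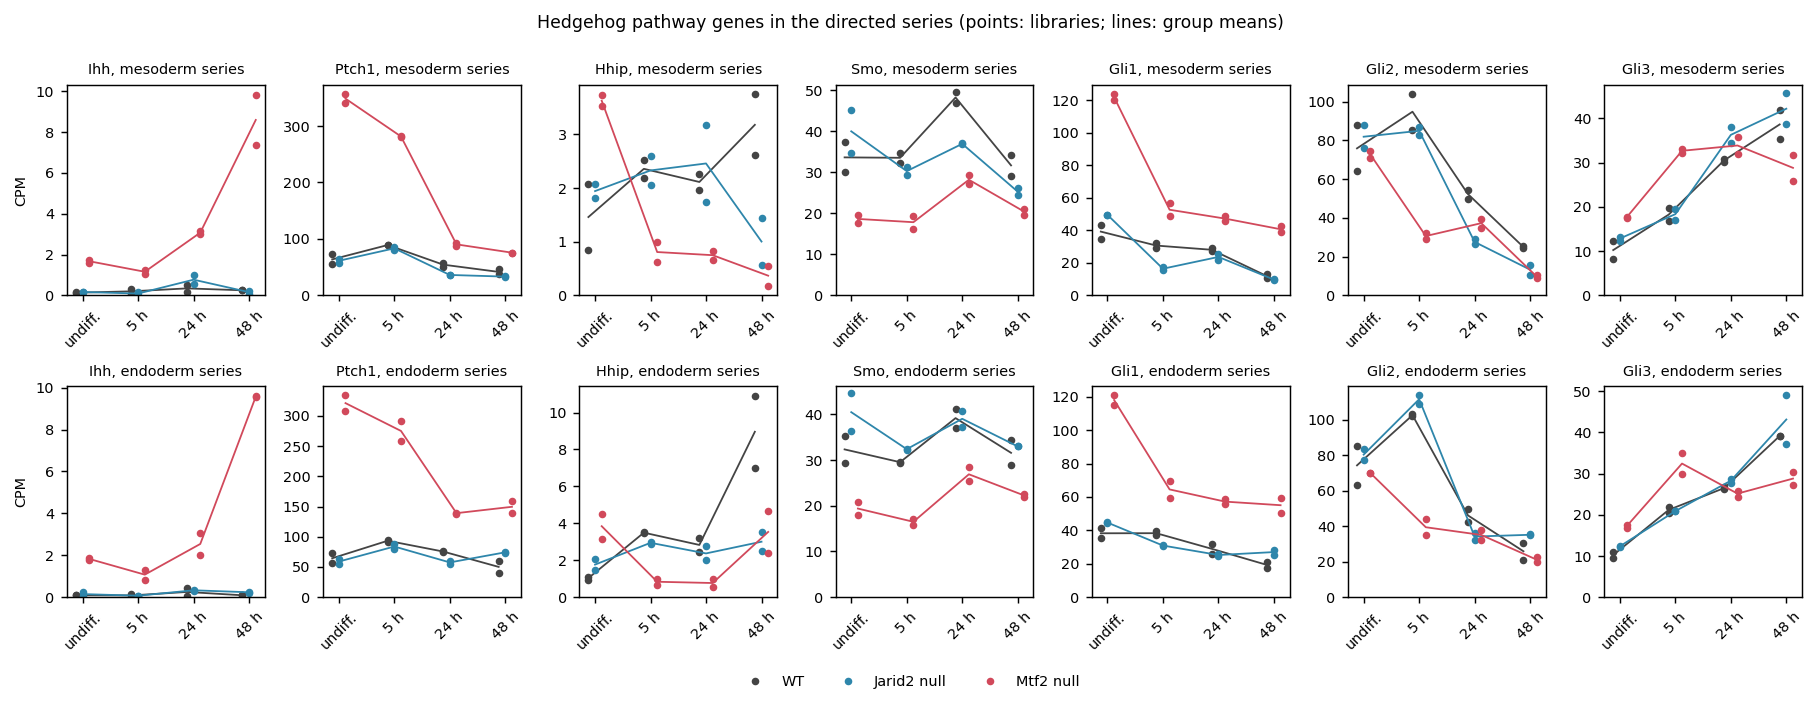
CPM of the 7 members that passed the filter on low counts, by time, in the mesoderm series (upper panels) and endoderm series (lower panels). Each point is 1 library and each line joins the means of the 2 libraries of a genotype. Ptch1 and Gli1 of Mtf2 null cells lie above those of WT at every time, with undifferentiated Ptch1 at 357 and 340 CPM against 72.6 and 55 in the mesoderm series.

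The main genotype comparison asked how loss of Mtf2 changed these genes at each time. Ihh, Ptch1 and Gli1 were higher in Mtf2 null cells, Smo lay below WT without passing the fold limit, Gli2 was lower at 5 h in both series and at 48 h in the mesoderm series, and Hhip was above WT before differentiation and below it after. In the mesoderm series the members called were 3 of 7 undifferentiated (11.1% of all tested genes), 2 at 5 h (7.56%), 1 at 24 h (5.72%) and 4 at 48 h (6.82%). In the endoderm series they were 4 (11.0%), 4 (7.61%), 1 (6.58%) and 3 (10.5%). Ihh passed the filter through Mtf2 null libraries alone and could only be called higher, so the counts are also given without it. Of the 24 gene and time tests of the other 6 members in each series, 4 were called higher and 3 lower in the mesoderm series and 6 higher and 2 lower in the endoderm series. The median log2 fold change of these 6 members was 1.06 and 1.19 in undifferentiated cells and -0.52 and -0.37 at 48 h, against medians of -0.0213, -0.0484, 0.00679 and -0.0165 over all tested genes. The p-values measure only the spread between duplicate libraries, since no source states that these came from separate cultures.

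Ihh was nearly silent in WT and detected in every Mtf2 null library. In the mesoderm series, Mtf2 null libraries held 17 and 17 Ihh counts undifferentiated, 14 and 15 at 5 h, 33 and 36 at 24 h, and 81 and 124 at 48 h, while WT libraries held 1 to 7. The endoderm series had 21 and 22, 14 and 9, 33 and 27, and 128 and 137 counts in Mtf2 null libraries and 0 to 6 in WT. At no time did the groups overlap in either series. The summed counts, scaled for depth, gave a ratio of 12.2 (95% counting interval 3.83 to 62) in undifferentiated cells and 34.2 (16.3 to 86.1) at 48 h of the mesoderm series. In the endoderm series the ratio was 19.3 (5.03 to 165) undifferentiated and 106 (29.1 to 880) at 48 h, where WT had 2 counts in all. Ihh was called higher at 3 of 4 times in the mesoderm and 4 of 4 in the endoderm series, with an adjusted p of 9.64e-08 and 1.24e-08 at 48 h, which the filter allowed in this direction only; at 5 h in the mesoderm series the log2 fold change was 2.5 (SE 0.62, adjusted p = 0.00444).

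The Ihh calls at 48 h held in every alternative fit, but those at earlier times rested on few WT counts. The mesoderm call in undifferentiated cells was lost with DESeq2 (adjusted p = 0.00156) and without Mtf2 null replicate 2 (0.00139), WT replicate 1 (0.00328) or WT replicate 2 (0.00268), where the log2 fold change stayed between 3.22 and 3.94. The endoderm call at 5 h was lost in 22 of 29 alternative fits. The 24 h call was lost without WT replicate 1 in the mesoderm series (log2 fold change 2.56, adjusted p = 0.00342) and without WT replicate 2 (2.5, 0.00309) or Mtf2 null replicate 1 (3.03, 0.00124) in the endoderm series, and the endoderm call in undifferentiated cells without WT replicate 1 (4.16, 0.00172) or 2 (4.13, 0.00215) or with DESeq2 (4.29, 0.00105).

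Summed levels of endoderm markers were higher in the libraries with Ihh. At 48 h of the endoderm series, the summed level of 6 extraembryonic endoderm markers (Afp, Ttr, Amn, Dab2, Sox7 and Apoa1) was 318 to 376 CPM in Mtf2 null and 6.69 to 9.01 in WT libraries, and that of 5 definitive endoderm markers (Sox17, Foxa2, Cxcr4, Cer1 and Hhex) was 60.5 to 70.6 and 4.99 to 5.54. In the mesoderm series the extraembryonic sum at 48 h was 221 to 232 CPM in Mtf2 null and 11.3 to 12.2 in WT, and the sum of 6 lateral and cardiac mesoderm markers was 67.2 to 68.7 and 13.3 to 16.1. Of the latter, Pdgfra alone gave 46.5 to 46.9 CPM in Mtf2 null and 1.22 to 1.83 in WT. Hand1, Tbx20 and Kdr were also higher in Mtf2 null. Isl1 was lower at 0.363 to 0.396 against 0.915 to 1.47, and Hand2 was at or near 0 in both. Of the endoderm markers at 48 h of the endoderm series, Dab2 alone gave 211 to 252 CPM in Mtf2 null and 3.48 to 5.54 in WT. Ttr, Amn, Sox7, Sox17, Foxa2, Cxcr4 and Hhex were also higher in Mtf2 null. Afp, Apoa1 and Cer1 were at 0.224 CPM or less in both genotypes there. In undifferentiated cells the extraembryonic sum was already 62.4 to 70.1 CPM in Mtf2 null and 9.20 to 11.8 in WT libraries of the mesoderm series. The sum did not follow Ihh at every time: at 24 h it had dropped to 23.2 to 26.1 CPM in Mtf2 null (WT 3.43 to 3.5). In the endoderm series it went from 63.3 to 69.6 undifferentiated to 35 to 45.9 CPM, while Ihh counts there were above those of undifferentiated cells. WT cells at 48 h of the endoderm series thus carried few of the markers of the labelled tissue, with Sox17 at 0.173 to 0.377 CPM. The part of these markers' cells in the Ihh result was not tested.

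Ptch1, the receptor and target gene, was called higher in undifferentiated Mtf2 null cells and at 5 h in both series. In the mesoderm series its level was 357 and 340 CPM in undifferentiated Mtf2 null libraries and 72.6 and 55 in WT, then 283 and 280 against 89.7 and 88.8 at 5 h, 92.5 and 88.4 against 51.1 and 58.0 at 24 h, and 75.9 and 75.6 against 46.1 and 37.3 at 48 h. All Mtf2 null libraries lay above all WT libraries at each time, and the gap narrowed. The log2 fold change was 2.45 (SE 0.12, adjusted p = 5.02e-12) undifferentiated, 1.66 (SE 0.12) at 5 h, 0.73 (SE 0.12) at 24 h and 0.86 (SE 0.12) at 48 h, the last pair under the fold limit. The change of the effect from undifferentiated to 48 h was -1.59 (SE 0.17, adjusted p = 4.12e-06). In the endoderm series Ptch1 was 334 and 308 CPM against 72.4 and 56.3 undifferentiated and 140 and 159 against 59.5 and 40.7 at 48 h, with log2 fold changes of 2.32 and 1.57, and the change of the effect was -0.75 (SE 0.20, adjusted p = 0.00907), not called.

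Gli1, the other common readout, was higher in Mtf2 null libraries at all times and in both series. Undifferentiated levels were 124 and 120 CPM against 43.6 and 35 in WT in the mesoderm series (log2 fold change 1.64, SE 0.12, adjusted p = 1.37e-09). In the endoderm series they were 121 and 115 against 41.3 and 35.2. At 48 h they were 42.5 and 39.0 against 12.9 and 10.7 (1.78, SE 0.13) and 50.6 and 59.5 against 20.8 and 17.7 (1.51, SE 0.13). At 5 and 24 h the log2 fold change was between 0.75 and 0.98, with adjusted p of 0.0001 or less and no overlap of the groups, and did not pass the fold limit. The courses differed. In the mesoderm series the mean of Mtf2 null libraries went from 122 CPM to 52.7 at 5 h, 47.3 at 24 h and 40.8 at 48 h, while that of WT went from 39.3 to 30.7, 28.1 and 11.8. Most of the decline thus lay before 5 h in Mtf2 null and after 24 h in WT.

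Hhip changed direction. In undifferentiated cells it had 40 and 34 counts in Mtf2 null against 21 and 10 in WT libraries of the mesoderm series, and 54 and 37 against 10 and 12 in the endoderm series. By 5 h the order was turned, at 7 and 14 counts against 28 and 21, and 7 and 11 against 45 and 42. At 48 h the mesoderm series had 2 and 7 counts in Mtf2 null against 40 and 46 in WT, and the endoderm series 32 and 67 against 81 and 116. Mtf2 null lay above WT in all undifferentiated libraries and below it in all differentiated ones. The log2 fold change was 1.33 (SE 0.43, adjusted p = 0.0188) and 1.88 (SE 0.40, adjusted p = 0.000639) in undifferentiated cells of the mesoderm and endoderm series, -2.05 (SE 0.41, adjusted p = 0.000611) at 5 h of the endoderm series and -3.03 (SE 0.52, adjusted p = 0.000166) at 48 h of the mesoderm series. The change of the effect over 48 h was called in both series, at -4.36 (SE 0.68) and -3.21 (SE 0.50). Leaving out 1 of the libraries compared ended each of these calls in some cases, at log2 fold changes of -2.49 (Mtf2 null replicate 1) and -2.76 (WT replicate 2) for 48 h in the mesoderm series, 1.61 to 2.12 for undifferentiated cells (any of the 4 libraries) and -1.77 to -2.38 at 5 h in the endoderm series (any of the 4). The changes of the effect were lost without Mtf2 null 48 h replicate 1 (-3.83), WT 48 h replicate 2 (-4.09), Mtf2 null undifferentiated replicate 1 (-4.32) or WT undifferentiated replicate 2 (-3.84) in the mesoderm series, and without Mtf2 null undifferentiated replicate 1 (-2.95) in the endoderm series.

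Smo, which carries the signal across the membrane, lay below WT in Mtf2 null cells in all 8 comparisons. In the mesoderm series it stood at 17.6 and 19.7 CPM undifferentiated, 16.3 and 19.4 at 5 h, 27.1 and 29.3 at 24 h and 19.7 and 21.1 at 48 h. WT libraries had 37.3 and 30, 34.7 and 32.4, 49.7 and 46.8, and 29.2 and 34.2. The 8 log2 fold changes ran from -0.91 to -0.51 with adjusted p of 0.00302 or less, and none passed the fold limit. The groups did not overlap at any time.

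The 3 Gli genes differed from each other. Gli2 overlapped WT in undifferentiated cells (74.4 and 71.1 CPM against 87.8 and 64 in the mesoderm series, log2 fold change -0.06, SE 0.15) and was called lower at 5 h, at 32.1 and 29.2 against 85.6 and 104 CPM (-1.63, SE 0.16, adjusted p = 1.26e-07). In the endoderm series 5 h gave 43.9 and 34.9 against 102 and 103 CPM (-1.38, SE 0.15). At 48 h it was lower in the mesoderm series, at 8.90 and 10.5 against 25.5 and 24.4 CPM (-1.36, SE 0.18), while in the endoderm series 19.6 and 22.6 overlapped 30.6 and 21.1 CPM. The change of the Gli2 effect over 48 h in the mesoderm series (-1.30, SE 0.24, adjusted p = 0.000776) was lost in 15 of 29 alternative fits, at adjusted p up to 0.00883. Gli3 was at 17.5 and 17.7 CPM in undifferentiated Mtf2 null against 12.3 and 8.18 in WT (0.79, SE 0.17, adjusted p = 0.00105) and at 25.8 and 31.8 against 35.4 and 41.8 at 48 h (-0.42, SE 0.15), so that its climb over time was shallower. The change of the Gli3 effect was called in the endoderm series (-1.19, SE 0.19, adjusted p = 9.12e-05; -1.09 and adjusted p = 0.00115 without WT undifferentiated replicate 2) and just missed the limit in the mesoderm series (-1.21, SE 0.23, adjusted p = 0.00107). Members called for a change of the Mtf2 effect over 48 h were 3 of 7 in the mesoderm series, beside 2.71% of all tested genes, and 2 of 7 in the endoderm series, beside 5.24%.

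Foxf1 and Shh stayed near the limit of detection. In Mtf2 null libraries Foxf1 reached 9 and 8 counts at 48 h of the endoderm series against 1 and 1 in WT, a depth-scaled ratio of 6.80 (95% counting interval 1.61 to 60.7), and 6 and 1 against 3 and 0 in the mesoderm series, a ratio of 2.72 (0.621 to 16.3). With no filter on low counts the endoderm difference had an adjusted p of 0.172. Shh had 0 counts in all 8 Mtf2 null libraries of the endoderm series and 1 at most in the mesoderm series, so no difference was detectable at this depth.

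The undifferentiated condition occurs in both series, which gave 4 libraries of each genotype in a joint fit with the series as a term. Ihh (log2 fold change 3.81, SE 0.43), Ptch1 (2.40, SE 0.10), Gli1 (1.64, SE 0.08) and Hhip (1.61, SE 0.27) were called higher in Mtf2 null cells, 4 of 7 members, Ihh with the limit given above, beside 14.5% of 17155 tested genes. The Hhip call was lost without WT replicate 1 of the endoderm series (1.44, adjusted p = 0.00113). Same-numbered libraries of the series were closer to each other than differently numbered ones of the same genotype, clearly for Mtf2 null (spread over sampling noise 11.6 and 7.33 against 15.9 and 20.7) and barely for WT replicate 1 (19.1 against 19.2 and 22). Whether they share cells is not given in the sources used here, and if they do the p-values of this fit are too small. In the same fit 0 members were called in Jarid2 null cells, beside 1.10%, with 3 at an unadjusted p under 0.05 by edgeR and 0 called by DESeq2.

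Jarid2 null cells were compared with WT in the same way. No member was called by edgeR in any of the 28 tests of either series, with 9 and 8 at an unadjusted p under 0.05, and DESeq2 called 0 and 0. The share of all tested genes called was 0.370% undifferentiated, 0% at 5 h, 1.97% at 24 h and 0.169% at 48 h in the mesoderm series, and 0.742%, 0.0363%, 0.0312% and 0.125% in the endoderm series, so the background was low too. The nearest to a call was Gli2 at 24 h of the mesoderm series, at 28.9 and 26.3 CPM against 50 and 54.6 in WT (-0.92, SE 0.16, adjusted p = 0.000452), which the fold limit kept out. At 48 h Gli2 was at 10.7 and 15.9 against 25.5 and 24.4 CPM there (-0.89, SE 0.17, adjusted p = 0.00733) but at 34.9 and 35.4 against 30.6 and 21.1 in the endoderm series (0.44, SE 0.16, adjusted p = 0.101). Gli1 at 5 h of the mesoderm series was at 17.5 and 15.4 CPM against 29.4 and 32 (-0.89, SE 0.13, adjusted p = 0.00625), and Hhip at 48 h of the endoderm series at 36 and 54 counts against 81 and 116 (-1.57, SE 0.31, adjusted p = 0.00444). For the change of the Jarid2 effect over 48 h, 0 members were called in both series by edgeR and by DESeq2, with 4 and 2 at an unadjusted p under 0.05, beside 0.0545% and 0.514% of all tested genes. Ihh held 0 to 13 counts in Jarid2 null libraries, and its 24 h level in the mesoderm series, 13 and 6 counts against 2 and 7 in WT, overlapped that of WT.

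**Figure D2:**
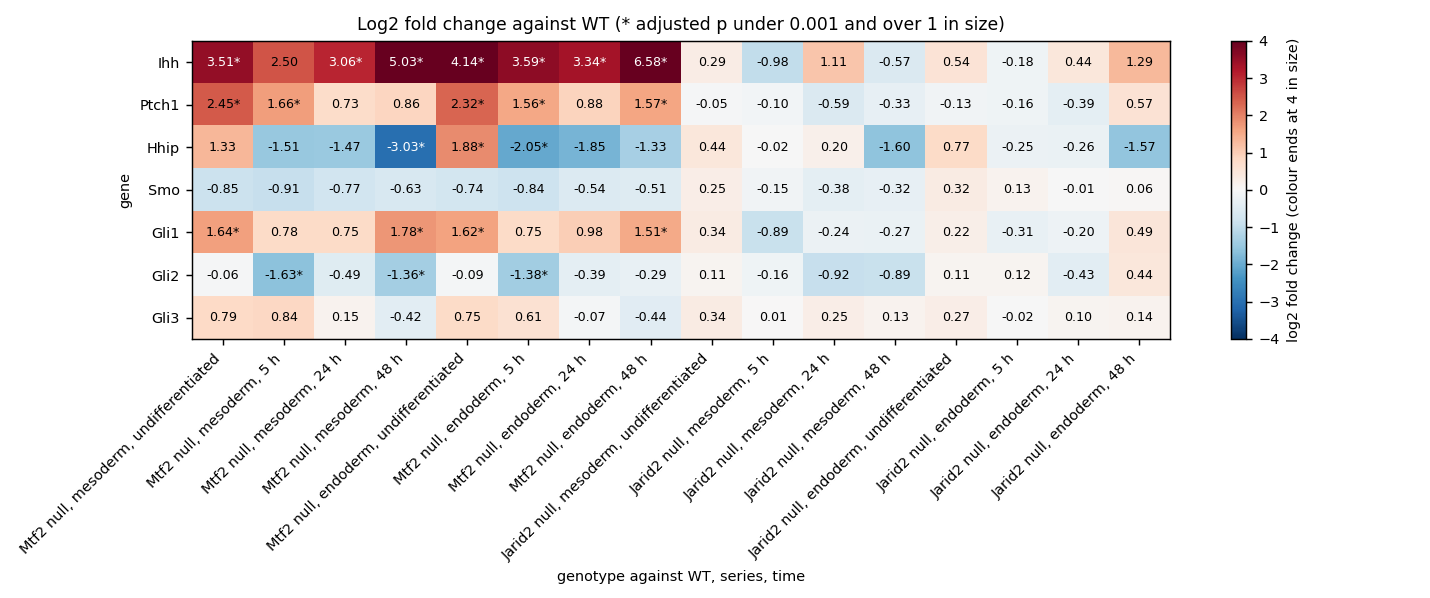
Log2 fold change against WT of the 7 tested members (rows) in the 16 genotype comparisons of the directed series (columns), with the value printed in each field and a star where the adjusted p was under 0.001 and the size over 1. Stars stand only in the Mtf2 null columns, 10 in the mesoderm and 12 in the endoderm series. Without Ihh, which could only be called higher, they number 7 and 8. Of all tested genes, 5.72 to 11.1% and 6.58 to 11.0% were called in these columns. In the Jarid2 null columns the share was 0 to 1.97%. Ihh at 48 h of the endoderm series has the highest value, 6.58.

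Beyond the 9 members, 3 lists of related genes were counted. Of 30 other pathway components, all tested, Mtf2 null cells gave 14 calls in 120 gene and time tests of the mesoderm series (4 higher, 10 lower) and 13 in 120 of the endoderm series (6 higher, 7 lower), with medians of -0.03 and -0.02 at 48 h. These are 11.7% and 10.8% of the tests, pooled over the times. The shares over all tested genes at single times were 5.72% to 11.1% and 6.58% to 11.0%. The list thus lay just above that range in the mesoderm series and within it, near its upper end, in the endoderm series. The co-receptor Boc was lower in 6 comparisons by 4.46-fold to 6.56-fold, at 0.788 ± 0.0584 CPM (SD, n = 2) against 5.22 ± 0.278 in undifferentiated cells of the mesoderm series. Efcab7, which helps to hold the Smo-binding Evc complex at the cilium, was lower in 6 by 2.43-fold to 6.28-fold, and Prkaca, a catalytic subunit of the protein kinase A that marks Gli proteins for processing, in 4 by 2.04-fold to 2.16-fold. On the other side, the endocytic receptor Lrp2 was higher in 4 comparisons by 3.23-fold to 5.09-fold, reaching 2827 ± 326 CPM against 555 ± 58.4 at 48 h of the endoderm series. Scube2 and Scube3, secreted proteins that help to release ligand from cells, were higher in 2 and 3 Mtf2 null comparisons, Scube2 by 10.8-fold and 22.5-fold at 48 h; Scube3 was also higher in 2 Jarid2 null comparisons, the whole of that list's calls there.

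Of 20 known GLI targets outside the members, 13 passed the filter in the mesoderm series and 11 in the endoderm series. Of these, 5 and 4 genes, Olig2, Foxa2, Foxf2 and Foxc1 in both and Nkx6-1 in the mesoderm series, had at least 10 counts in no more than 1 library outside Mtf2 null and could only be called higher. The other 8 and 7 genes gave 6 calls in 32 tests and 5 in 28 in Mtf2 null cells, all higher, with medians of 0.52 and 0.38 at 48 h. These are 18.8% and 17.9% of the tests, beside 5.72% to 11.1% and 6.58% to 11.0% of all tested genes. Most of these calls were of Ccnd2 alone, so they do not describe the list as a whole. Olig2, a factor of motor neuron progenitors, was called in all 8 comparisons, at 15.6 ± 0.111 CPM against 0.0493 ± 0.0697 in undifferentiated cells and 25.2 ± 2.41 against 0.0327 ± 0.0462 at 48 h of the mesoderm series. Ccnd2, a cyclin of the early cell cycle, was called in all 8 by 2.28-fold to 7.24-fold. Foxa2, which is also an endoderm gene, was called in 6, at 17.7 ± 3.01 CPM against 0.173 ± 0.245 at 48 h of the endoderm series, and Foxf2, a relative of Foxf1, in 2. Mycn was higher in undifferentiated Mtf2 null cells of both series (226 ± 25.9 against 80.8 ± 14.7 CPM in the mesoderm series) and lower in 3 Jarid2 null comparisons by 2.36-fold to 2.54-fold. Jarid2 null cells gave 3 calls in 52 tests of the mesoderm and 1 in 44 of the endoderm series, all lower. The shares over all tested genes were 0 to 1.97% and 0.0312 to 0.742%. Of 20 primary cilium genes, Ift140 alone was called, lower at 5 h in Mtf2 null cells of both series by 2.77-fold at most.

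Across the 24 group means of the directed series, each series centred on its own mean, the genes most like a member were found among 18017 genes by Pearson correlation of log2 CPM. These points share libraries and genotypes, so the values only describe likeness. Ptch1 was followed most closely by D330045A20Rik (r = 0.96) and Zbtb8a (0.96), Gli1 by Dact1 (0.91) and Tmem39a (0.91), and Ihh by Gm38194 (0.98) and Gm9864 (0.98). Smo was nearest to Smoc1 (0.94) and Tmtc4 (0.94), Gli3 to Zfhx3 (0.92) and Ahr (0.91), and Hhip, with few counts, to Pcdhga8 (0.79) and Atl3 (0.78).

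Bulk EBs gave each line beside its matched WT over 7 days, with 1 sample per line and day. Where a sample had more than 1 column, these were summed, so the spread between them did not enter the test. The 8 members other than Shh passed the filter. With the day as a block, limma called 3 of 8 members in the line labelled Mtf2 null against Pcl1-3 wt (18.5% of 15827 tested genes), 2 of 8 in that labelled Jarid2 null against JM8 (14.9%) and 0 of 8 in that labelled Eed null against J1 (11.0%, with 1 member at an unadjusted p under 0.05), at an adjusted p under 0.05. DESeq2 was not run on these samples. The edgeR test on the same reads stands among the alternatives.

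Ihh climbed with time in the lines labelled null. From day 0 over days 2 and 4 to day 7, the line labelled Mtf2 null showed Ihh at 0.163, 0.554, 2.76 and 7.84 CPM, against 0.0684, 0.253, 0 and 0.105 in Pcl1-3 wt. The line labelled Jarid2 null had 0.201, 1.04, 3.79 and 25.7 CPM against 0.0759, 0.0789, 0.590 and 0.655 in JM8, and that labelled Eed null 0.416, 0.435, 1.76 and 5.52 against 0.178, 0.0963, 0.615 and 10.1 in J1. Ihh was thus higher than in the matched WT on 4 of 4 days for the lines labelled Mtf2 null (log2 fold change 2.49, SE 0.73, adjusted p = 0.023) and Jarid2 null (2.51, SE 0.73, adjusted p = 0.0254), and on 3 of 4 days for that labelled Eed null, where WT was above it at day 7. Only 1 WT sample, J1 at day 7, reached the 1 CPM of the filter, so here too Ihh could hardly be called lower. The calls were lost without day 4 (2.02, adjusted p = 0.212, and 2.59, 0.131) or day 7 (1.74, 0.133, and 1.74, 0.135), and for Jarid2 null also without day 2 (2.59, 0.0871). Beside them, the extraembryonic endoderm sum at day 7 was 2032 CPM in the line labelled Mtf2 null against 25.8 in Pcl1-3 wt, 1189 in that labelled Jarid2 null against 76.2 in JM8, and 878 in that labelled Eed null against 744 in J1, and its part in the Ihh result was not tested.

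Ptch1 and Smo ran opposite to the directed series. Ptch1 was at 96.3, 83.7, 133 and 159 CPM in the line labelled Mtf2 null against 213, 239, 435 and 225 in Pcl1-3 wt, lower on 4 of 4 days (-1.22, SE 0.29, adjusted p = 0.00623). In the lines labelled Jarid2 null and Eed null it was lower than in WT on days 0 and 2, at 96.6 and 85.3 against 197 and 186 CPM and at 88.8 and 87.8 against 179 and 147, and mixed later. Smo was at 47.6, 29.8, 89.1 and 124 CPM in the line labelled Mtf2 null against 22.5, 19.1, 51 and 41.9 in Pcl1-3 wt (1.02, SE 0.18, adjusted p = 0.000686), and at 39.3, 27.9, 110 and 98.0 against 20.0, 17.9, 65.5 and 64.4 for that labelled Jarid2 null (0.74, SE 0.18, adjusted p = 0.00924). It was higher than in the matched WT on 4 of 4 days in all 3 pairs, with 0.45 (SE 0.18, adjusted p = 0.111) for that labelled Eed null. The Smo call for Jarid2 null was lost without day 4 (0.74, adjusted p = 0.0822), and with no block for the day neither the Smo calls (adjusted p = 0.471 and 0.692) nor the Ihh calls (0.307 and 0.329) passed. For Ptch1 and Smo the sign was opposite to the directed series already at day 0. The directed and EB comparisons differ in WT line and in label checks, which cannot be told apart.

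Gli1 was lower on 3 of 4 days in the line labelled Mtf2 null, at 33.4, 24.3, 7.13 and 7.94 CPM against 28, 55.1, 21.3 and 17.3 (-0.90, SE 0.37, adjusted p = 0.0958). Hhip was also below the matched WT on 4 of 4 days in this line, at 0.245, 3.58, 5.52 and 9.28 against 4.03, 12.3, 5.90 and 9.68 CPM, and was not called. In each of the 3 WT lines Gli1 peaked at day 2, at 55.1, 44.2 and 32.7 CPM. Gli3 was highest at day 7 in all 6 lines, between 52.3 and 144 CPM, and Gli2 showed no common order. Foxf1 was nearly absent at day 2 in all lines, at 0 to 0.958 CPM, and at day 7 reached 16.0 CPM in the line labelled Mtf2 null against 0.632 in Pcl1-3 wt, 29.1 in that labelled Jarid2 null against 25.7 in JM8 and 23.1 in that labelled Eed null against 64.3 in J1. Shh was highest at day 7 of J1, at 63 reads, while the other lines had 3 to 17 reads at that day.

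**Figure D3:**
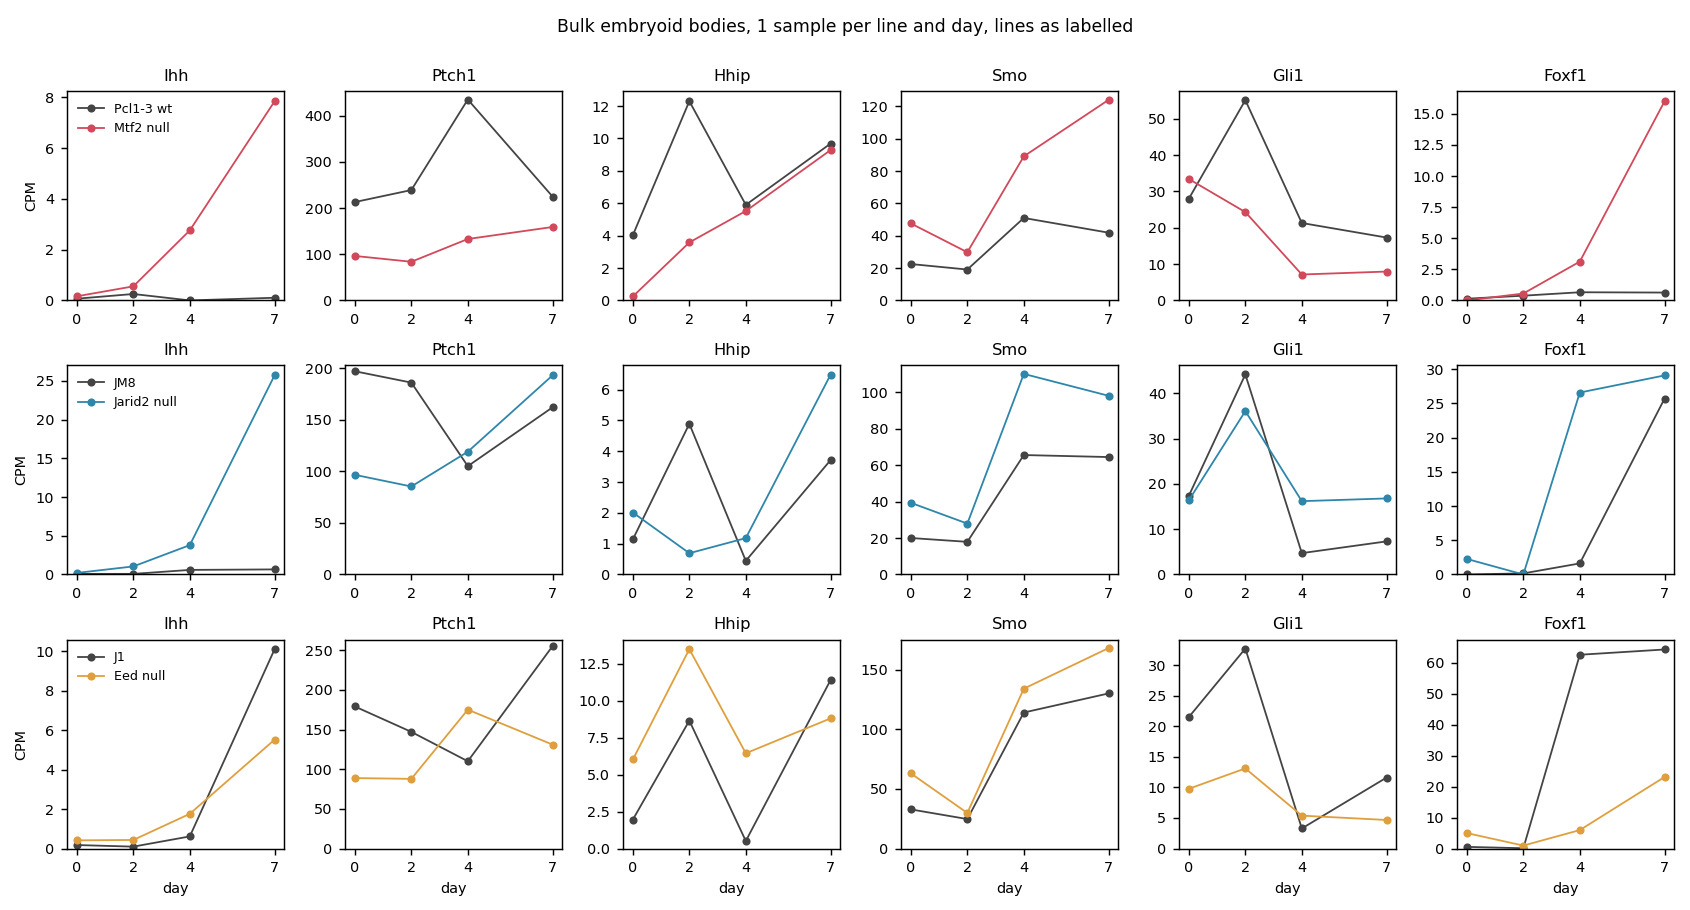
CPM of 6 members in bulk EBs by day, with each line labelled null (colour) beside its matched WT line (grey) in a row of panels. Each point is 1 sample. Ihh of the lines labelled Mtf2 null and Jarid2 null leaves its WT line after day 2, reaching 7.84 against 0.105 and 25.7 against 0.655 CPM at day 7, while Ptch1 of the line labelled Mtf2 null stays below Pcl1-3 wt on all 4 days.

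Single cells showed where in the EBs the genes were on. With 1 library per genotype and day there is no test, and values are UMI CPM (UMIs scaled to the total of the cells summed) with a 95% interval that covers counting error only. Among 4949 cells in 22 clusters, the study's own, 2721 had a UMI of at least 1 member and 273 of 3 or more. The ligands were rare, with 27 Shh UMIs in 17 cells and 39 Ihh UMIs in 18 cells, and no cell had both. With so few of the 4949 cells carrying either, a cell with both would be unlikely in any case. In cluster 21, which the study classes as endodermal, the definitive endoderm markers summed to 899.9 UMI CPM and the extraembryonic ones to 1728. Cxcr4, of the former, was at 43.08, below its 95.02 in cluster 14. Cluster 21 held 47 cells with 23 of the Ihh and 10 of the Shh UMIs. There Ihh was at 55.05 UMI CPM (34.9 to 82.6) and Shh at 23.93 (11.48 to 44.02), against at most 3.6 and 3.4 in any other cluster. All 10 of these Shh UMIs were in 4 Mtf2 null cells, and 12 of the Ihh UMIs were in 1 WT cell, so these levels rest on very few cells.

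Foxf1 was highest in cluster 4, which carried most of the level of the mesodermal class. It was at 62.84 UMI CPM (55.42 to 70.98) in the clusters classed as mesodermal, 2.625 (1.556 to 4.149) in the early differentiating, 3.69 (2.339 to 5.536) in the ectodermal and 2.393 (0.0606 to 13.34) in the endodermal ones. A Foxf1 UMI was found in 19.1% of mesodermal cells (exact interval 16.1 to 22.5%, median 5907 UMIs) and in 1.88% of ectodermal cells (1.08 to 3.04%, median 6207 UMIs), and in 9.946% and 0.6757% after thinning to 2500 UMIs per cell. Within the mesodermal class, cluster 4, which the study likens to lateral mesoderm, stood at 102.2 (89.24 to 116.6) and cluster 13 at 21.77 (14.99 to 30.57). Cluster 19, also of this class, lay below both. Clusters 14 and 20, outside these classes, were at 44.12 and 44.63, above clusters 13 and 19.

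Gli3 and Smo were on in differentiated cells of several layers. Gli3 was at 158 UMI CPM (146 to 170.6) in mesodermal and 117.8 (109.4 to 126.6) in ectodermal clusters, against 17.5 (14.51 to 20.93) in early differentiating ones and 14.36 (5.27 to 31.26) in the endodermal one, and was highest in the ectodermal cluster 15 at 304 (268.4 to 343). Smo was at 102.9 (93.31 to 113.1) in mesodermal, 64.97 (58.8 to 71.62) in ectodermal and 76.59 (52.39 to 108.1) in endodermal clusters, against 14.88 (12.13 to 18.06) in early differentiating ones. Gli1 was instead highest in cluster 0, at 27.76 (22.82 to 33.46), where 302 of 386 cells were Mtf2 null cells of day 0. In cluster 3, where 307 of 335 were WT cells of day 0, it was at 18.02 (13.5 to 23.57). This did not hold for all undifferentiated cells, as those of Eed null had less Gli1 than WT. Ptch1 was found in all 4 classes, from 63.59 (57.76 to 69.85) in early differentiating to 35.9 (20.09 to 59.21) in endodermal clusters. Because these clusters hold different genotypes, days and stages, none of the values separates cell type from genotype.

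**Figure D4:**
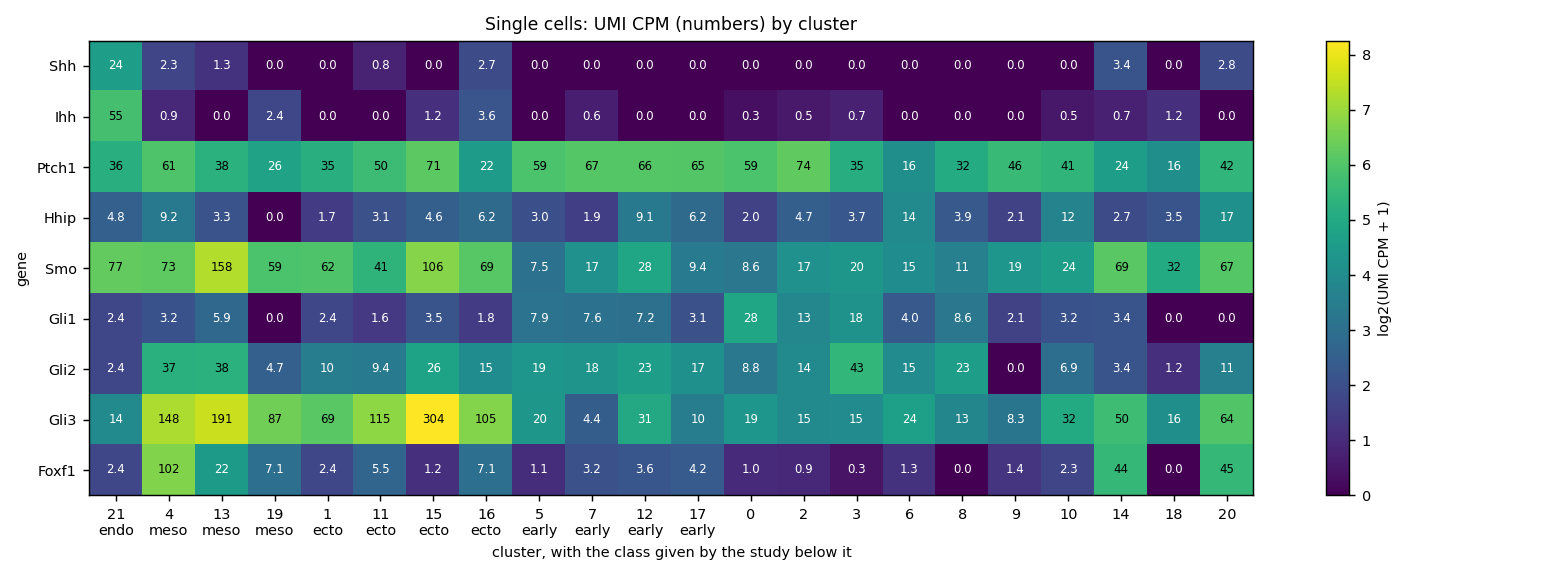
UMI CPM of the 9 members (rows) in the 22 single-cell clusters (columns), with the study's class under the cluster number where it gives one. The colour is log2(UMI CPM + 1). Ihh and Shh stand out in the endodermal cluster 21, at 55.05 and 23.93, Foxf1 in cluster 4 at 102.2 and Gli3 in cluster 15 at 304.

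Between genotypes, undifferentiated cells of day 0 gave Gli1 at 28.02 UMI CPM (23.01 to 33.8) in Mtf2 null, 17.06 (12.7 to 22.43) in WT, 11.52 (8.114 to 15.88) in Jarid2 null and 4.123 (2.254 to 6.917) in Eed null. Ptch1 was at 60.93 (53.42 to 69.2), 35.13 (28.73 to 42.52), 41.11 (34.4 to 48.75) and 17.08 (12.97 to 22.08) in the same order. The intervals of Mtf2 null and WT did not overlap for either gene, and those of Eed null lay below WT. Gli2 was at 7.712 (5.203 to 11.01) in Mtf2 null against 40.14 (33.28 to 48) in WT on day 0, while the undifferentiated libraries of the directed series had overlapped. Ihh, over all days, was at 3.12 (2.056 to 4.54) in WT, from 27 UMIs in 11 cells. In Mtf2 null it was at 0.715 (0.3087 to 1.409), from 8 UMIs in 4 cells. This order was the reverse of that in the directed series and rests on very few cells. Smo at day 0 was at 10.28 (7.346 to 14) in Mtf2 null and 20.41 (15.61 to 26.21) in WT.

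Later, Gli3, Smo and Foxf1 stood higher than at day 0 in all 4 genotypes. From day 0 to day 10 Gli3 went from 15.72 to 86.55 UMI CPM in WT, 19.54 to 143.5 in Mtf2 null, 19.62 to 107.2 in Jarid2 null and 23.85 to 193.3 in Eed null. Smo reached 47.21 (36.51 to 60.06) in WT, 78.25 (66.9 to 90.98) in Mtf2 null, 76.07 (63.65 to 90.21) in Jarid2 null and 162.7 (141.8 to 185.8) in Eed null at day 10. Foxf1 appeared at day 7, at 31.55 (24.45 to 40.06) in WT, 43.63 (35.68 to 52.81) in Mtf2 null, 13.12 (8.489 to 19.36) in Jarid2 null and 9.764 (6.189 to 14.65) in Eed null. Within the mesodermal class Foxf1 was at 83.66 (64.71 to 106.4) in WT, 107.4 (90.38 to 126.8) in Mtf2 null, 32.95 (20.13 to 50.89) in Jarid2 null and 23.2 (15.97 to 32.58) in Eed null, where 197 of 214 Eed null cells of the class were in cluster 13 and most WT and Mtf2 null cells in cluster 4. Hhip was highest in Eed null at day 0, at 13.25 (9.666 to 17.73) against 3.68 (1.837 to 6.584) in WT. A UMI of any member was found in 59.94% of Mtf2 null, 54.45% of WT, 52.92% of Eed null and 52.04% of Jarid2 null cells, and in 33.88%, 30.91%, 29.64% and 29.96% once each cell was thinned to 2500 UMIs.

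**Figure D5:**
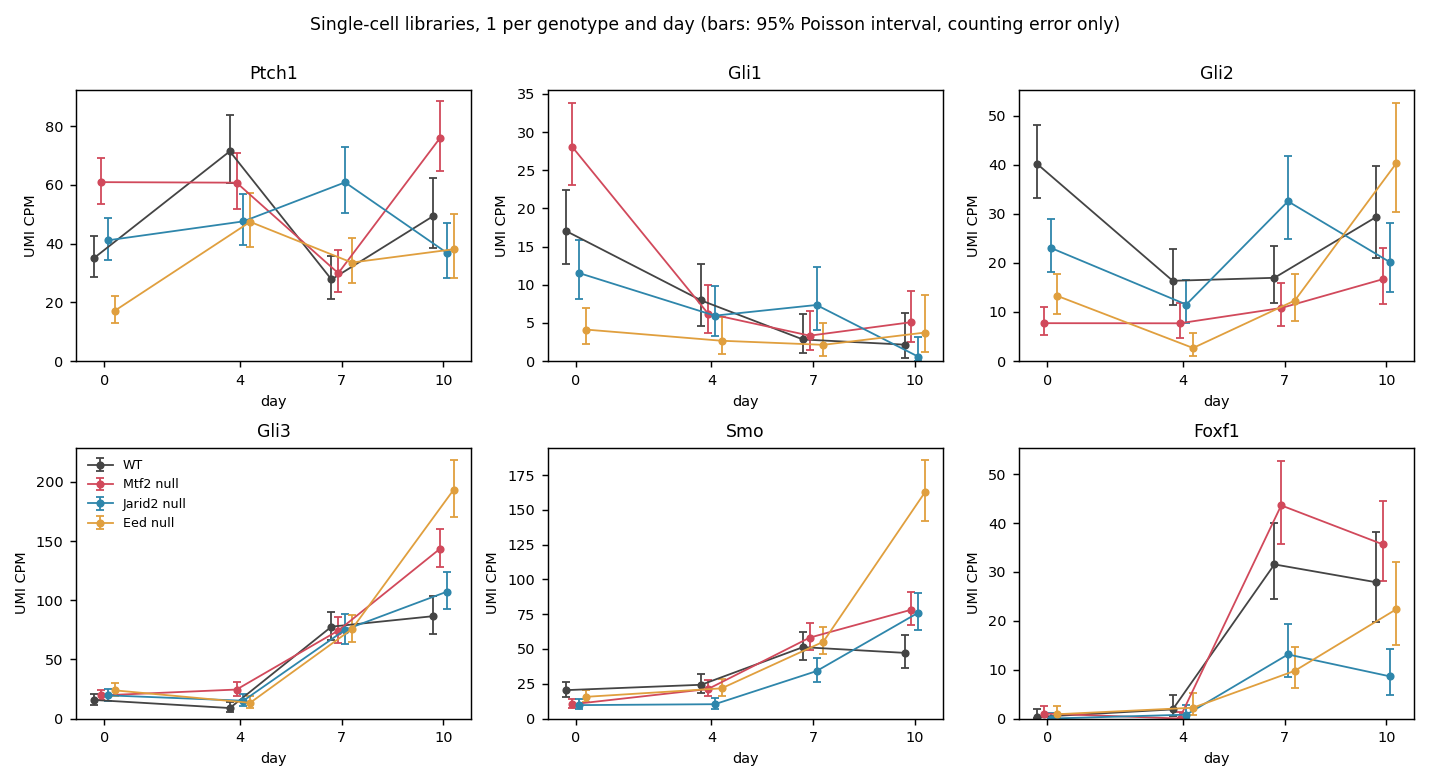
UMI CPM of 6 members in the 16 single-cell libraries by day, 1 library per genotype and day, with bars for the 95% Poisson interval. Gli1 of Mtf2 null is above WT at day 0 (28.02 against 17.06), Gli2 below it (7.712 against 40.14), and Gli3 and Smo are highest in Eed null at day 10, at 193.3 and 162.7.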

How the data were processed

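The samples measured RNA in mouse ESCs, in monolayers on the way to mesoderm or endoderm, in bulk EBs and in single cells of EBs. The submitters' processing notes name CASAVA, Bowtie2, Salmon, HTSeq and DESeq2 with GRCm38 and mm10. For the directed series the authors deposited estimated counts per gene from Salmon, which were rounded to whole numbers here. For bulk EBs the authors deposited a signal of read counts divided by size factors, with 46 columns for 24 samples. Whole reads were recovered in all 46 columns, with 100% of values whole within 0.02. The columns of a sample, which most headers number as replicates, were summed. For single cells the authors deposited UMI counts per gene and cell, already filtered (at least 1143 UMIs and 720 genes per cell), with cluster numbers; no doublet caller was run, and 106 cells lay above 3 times their library's median. All 384 well barcodes of the plates occur in more than 1 library. Columns of other samples numbered 0.

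Directed counts were tested with edgeR 4.0.16 (quasi-likelihood, TMM scaling, all groups of a series in 1 fit, at least 10 counts in the smallest group and 15 in all) on 18361 and 19261 genes, with Benjamini-Hochberg adjustment over all of them. Printed CPM values are scaled by TMM. EB reads were tested with limma 3.58.1 on log2 CPM with a prior count of 2, at least 1 CPM in 4 samples and the day as a block; edgeR on the same reads called 2902, 2284 and 1439 genes in the 3 line pairs. DESeq2 1.42.0 was an alternative. On simulated data, 133 of 200 genes changed 4-fold were recovered for Mtf2 null at 48 h of the mesoderm series (18361 genes) and 149 for the endoderm series (19261 genes). For the Mtf2 null EB pair 191 were recovered, with 4 false calls (15827 genes). The EB simulation gave all genes 1 common spread and no change by day, so it does not measure recovery in the real samples. The fits ran in R 4.3.3 and the summaries in Python 3.11.15 with scipy 1.17.1. The members and gene lists were chosen with earlier results of these data known. All 9 members are named; of the lists, genes called in at least 2 of the 16 genotype comparisons in the same direction; and for each tested member the 2 genes most correlated with it, which are not reported here for Gli2. Counts without strand cannot separate a gene from an antisense partner.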

Additional observations from a re-analysis of the deposited data

Results flagged for a closer look

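In Mtf2 null cells the difference from WT changed between undifferentiated cells and 48 h, by the test of that change, for Ptch1 (-1.59), Gli2 (-1.30) and Hhip (-4.36) on the log2 scale in the mesoderm series and for Gli3 (-1.19) and Hhip (-3.21) in the endoderm series. The level of Ptch1 fell toward WT, that of Gli2 and Gli3 went below it, and Hhip crossed from above to below.

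In some genes the libraries of the mesoderm and endoderm series all lay on opposite sides of WT, a difference between the series that was not tested. Gli3 of Mtf2 null at 24 h was 0.15 in the mesoderm and -0.07 in the endoderm series. Smo of Jarid2 null at 5 h was -0.15 and 0.13. At 48 h of Jarid2 null, Ihh was -0.57 and 1.29 on 1 to 4 counts, Gli1 -0.27 and 0.49, Gli2 -0.89 and 0.44, and Ptch1 -0.33 and 0.57.

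Ihh in the 4 undifferentiated WT libraries of both series had 1 library away from the others, at 0.17 CPM against 0.0937 to 0.0985, a gap of 0.937 of the range on 2 counts against 1. Of 21 groups of 4 looked at, 1 stood out in this way, and chance alone gives about 1 in 20.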

How the results depend on the processing

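The calls of Ptch1 and Gli1 in Mtf2 null cells, and of Gli2 at 5 and 48 h, held in every alternative fit; Ihh and Hhip, which have few counts, carried most of the lost calls. Of 363 recomputed main values 336 kept their side, 11 were weaker, 12 stronger and 4 moved, and of 1070 single calls 74 were lost; none reversed. With an adjusted p under 0.05 and no fold limit, Mtf2 null gave 26 calls of members in the mesoderm and 24 in the endoderm series (22.8 to 39.2% and 26.2 to 40.6% of all genes), Jarid2 null 5 and 3 (0.212 to 23.2% and 0.151 to 9.32%), WT over time 5 in the mesoderm series (35.4%), the change of the Jarid2 effect 1 and 2 (1.77 and 5.62%), and Jarid2 null over both series 1 (19.7%). With no filter on low counts the Jarid2 null comparison of the endoderm series gave 1, and the change of the Jarid2 effect 1 in each series. Without the day block, the EB pairs gave 1 call for Mtf2 null and 0 for Jarid2 null. Thinned cells gave shares of 29.64% for Eed null, 29.96% for Jarid2 null, 33.88% for Mtf2 null and 30.91% for WT. Leaving out 1 library gave 9 to 11 and 9 to 13 calls for Mtf2 null, 1 to 4 and 1 to 3 for the change of its effect, 3 to 4 over both series and 0 throughout for Jarid2 null; leaving out 1 day gave 2 to 5, 0 to 2 and 0 in the EB pairs. For the change of the effect, the lowest count came without Mtf2 null 48 h or undifferentiated replicate 1 or WT 48 h or undifferentiated replicate 2 in the mesoderm series and without WT undifferentiated replicate 2 or Mtf2 null undifferentiated replicate 1 in the endoderm series. Within a series, same-numbered libraries did not deviate together (median correlation 0.0069 and 0.01; 6 and 4 of 66 pairs over 0.1), so between groups of a series they share only a number; with the replicate block the calls were 10, 0, 3, 2 and 0 in the mesoderm series (Mtf2 null, Jarid2 null, WT over time, changes of both effects), 13, 0, 3, 2 and 0 in the endoderm series, and 4 and 0 over both. The cause of these changes was not tested. The low counts limit Ihh, Hhip and Foxf1, and single-cell values have no replicate.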

Other observations

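In single cells, the UMIs of Shh and Ihh lay in 7 and 12 of the 22 clusters. No cell had both, but with 17 and 18 cells this does not show that they exclude each other. Outside the endodermal cluster 21, Shh was next highest in cluster 14, at 5 UMIs in 190 cells, of which 4 were in 1 Mtf2 null cell. Ihh was next highest in cluster 16, at 4 UMIs in 134 cells, all in 1 WT cell. These values thus describe single cells rather than clusters. Hhip, in contrast, had 203 UMIs in 129 cells.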
